A study of Saccharomyces cerevisiae with 12 samples.

Results

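The 9 genes described here encode the lysine pathway of *Saccharomyces cerevisiae*: *LYS1*, *LYS2*, *LYS4*, *LYS5*, *LYS9*, *LYS12*, *LYS14*, *LYS20* and *LYS21*. They were taken by gene identifier from a table of 7108 named genes and other features, and all 9 were among the 6372 that could be tested. RNA had been sequenced from 4 groups of 3 libraries each. The first was nascent *ulp2Δ* (MHY1379/ulp2D), which lacks the SUMO protease Ulp2. The other 2 mutant groups, line 6 and line 9, are *ulp2Δ* lines evolved for 500 generations. WT (MHY1379) carries the same chromosomal deletion and has *ULP2* on the plasmid YCplac33, so every group lacks the chromosomal gene. Each evolved group is 1 line. According to the study, both evolved lines also carry missense mutations in Uba2, a subunit of the SUMO-activating enzyme, and their Uba2 alleles differ. The Uba2 genotype that belongs to a line number is not given by the labels. The part of these mutations in the differences described below was not tested. According to the study's methods, the cells were growing exponentially in YPD, a rich medium that contains lysine. The amino acid auxotrophies of the strains are not given in the sources used here.

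Fungi make lysine from α-ketoglutarate and acetyl-CoA by the α-aminoadipate route, which plants and most bacteria do not use. Homocitrate synthase (Lys20 and Lys21) catalyses the committed step and is inhibited by lysine. Lys4 and Lys12 carry the chain on to α-ketoadipate, which is transaminated to α-aminoadipate. Lys2 reduces this to the semialdehyde, and Lys9 and Lys1 convert it through saccharopine to lysine. Lys14 is a zinc cluster activator of the *LYS* genes that responds to the semialdehyde, and Gcn4 activates many of the same genes when amino acids are scarce.

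To show what the genes share in sequence, the 300 bases before each start codon were searched on both strands. The motifs were TCCNNNGGA and TGACTC, the Gcn4 site. The first, called the Lys14 core here, has the outer bases of the palindrome bound by Lys14 and allows any bases between them. No match of one motif overlapped a match of the other in these windows. The Lys14 core was found before 4 of the 9 genes (*LYS1*, *LYS9*, *LYS12* and *LYS14*) and before 3.15% of all 6001 promoters searched. The Gcn4 site was found before 4 of the 9 (*LYS1*, *LYS2*, *LYS12* and *LYS14*) and before 7.77% of all promoters. Neither was found within this window of *LYS4*, *LYS5*, *LYS20* or *LYS21*. These are descriptions of the letters, not of binding. The Lys14 core matches of *LYS1*, *LYS9* and *LYS12* share the pattern TCCNNNGGA but not its middle bases. The windows of *LYS1* (minus strand, chrIX:420737-421036), *LYS9* (minus strand, chrXIV:715389-715688) and *LYS12* (minus strand, chrIX:187633-187932) are printed from the RefSeq R64 genome, 5′ to 3′, with both motifs in capitals (a Gcn4 site on the other strand reads GAGTCA), because these genes each hold a match to that pattern and differed in direction in nascent cells:
LYS1: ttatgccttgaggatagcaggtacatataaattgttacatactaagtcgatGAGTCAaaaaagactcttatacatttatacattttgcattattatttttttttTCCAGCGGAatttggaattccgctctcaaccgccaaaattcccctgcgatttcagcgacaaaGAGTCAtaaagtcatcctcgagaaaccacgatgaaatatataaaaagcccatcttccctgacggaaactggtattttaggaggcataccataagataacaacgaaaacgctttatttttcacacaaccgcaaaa
LYS9: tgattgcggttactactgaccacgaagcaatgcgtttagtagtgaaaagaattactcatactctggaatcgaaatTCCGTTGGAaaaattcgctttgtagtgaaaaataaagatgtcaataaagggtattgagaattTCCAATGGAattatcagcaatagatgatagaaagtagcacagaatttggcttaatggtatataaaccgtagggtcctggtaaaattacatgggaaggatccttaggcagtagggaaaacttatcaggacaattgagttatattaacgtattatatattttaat
LYS12: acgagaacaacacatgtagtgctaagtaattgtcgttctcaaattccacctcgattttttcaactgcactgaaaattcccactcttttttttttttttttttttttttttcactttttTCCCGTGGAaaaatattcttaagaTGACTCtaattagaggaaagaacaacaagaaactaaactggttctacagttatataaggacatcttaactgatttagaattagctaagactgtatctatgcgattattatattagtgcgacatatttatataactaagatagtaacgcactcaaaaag
The single Gcn4 site of *LYS2* (minus strand, chrII:474103-474132) and the Lys14 core of *LYS14* (minus strand, chrIV:512306-512335) lay in these 30 bases:
LYS2: gtttttcgcgtgTGACTCaatgtcgaaata
LYS14: tggaaaaattTCCTCAGGAatttcaaaatc

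The libraries held 20467216 to 30719553 counts on named features. The lysine genes had 802 to 5259 counts in a library. The deleted gene, *ULP2*, showed 10, 5 and 5 counts in the nascent strain, 4, 3 and 4 in line 6, and 8, 4 and 20 in line 9, compared with 8699, 8519 and 10694 in WT. None of the 9 genes overlaps another gene of the R64 annotation, each has 1 coding exon, and none lies on chromosome I or XII, where the median gene of nascent cells stood 0.68 and 0.69 above WT on the log2 scale. Levels below are TMM-scaled CPM (counts scaled to a common library size after edgeR's adjustment between libraries), given for replicates 1, 2 and 3 of a group. A gene passed the test at an adjusted p under 0.05 in the quasi-likelihood test of edgeR, after Benjamini-Hochberg adjustment over the 6372 genes.

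Against WT, the genes of the pathway did not move as a block in any strain. In nascent *ulp2Δ*, *LYS1*, *LYS2*, *LYS5* and *LYS14* rose, *LYS9*, *LYS12*, *LYS20* and *LYS21* fell, and *LYS4* did not pass the test. In both evolved lines *LYS1*, *LYS2*, *LYS4*, *LYS5* and *LYS14* rose, *LYS12*, *LYS20* and *LYS21* fell, and *LYS9* did not pass. So 4 of 9 genes were higher and 4 lower in nascent cells, where 33.6% of all tested genes were higher and 39.7% lower. In line 6, 5 were higher and 3 lower, against 36.8% and 37.2% of all genes. In line 9, 5 were higher and 3 lower, against 32.5% and 33.9%. The share of members that passed was thus 8 of 9 in each strain, where the pass rate over all genes was 73.3% for nascent cells, 74% for line 6 and 66.5% for line 9. For those 8 members the strain and WT libraries did not overlap, beside 76% of all genes without overlap for nascent cells, 74.9% for line 6 and 69% for line 9. In RNA from a whole culture, a change in level per cell cannot be told apart from a change in the share of cells that express a gene.

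**Figure D1:**
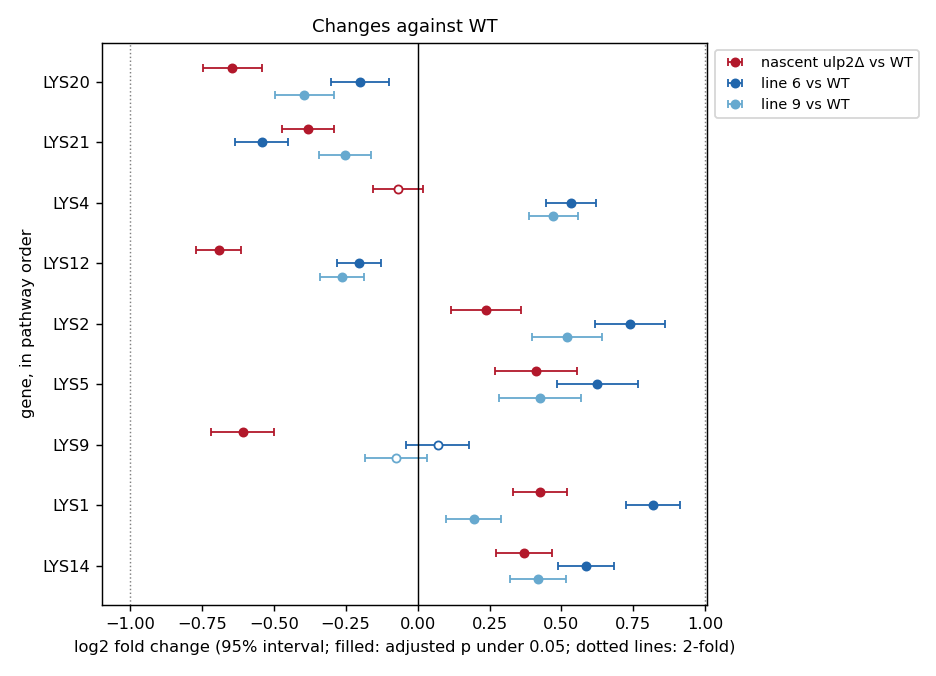
The log2 fold change of each lysine gene (horizontal axis, with its 95% interval) is plotted for nascent *ulp2Δ*, line 6 and line 9 against WT, with the genes in pathway order from top to bottom. Filled points passed the test. *LYS20*, *LYS21* and *LYS12* lie left of 0 in all 3 strains, *LYS2*, *LYS5*, *LYS1* and *LYS14* right of 0, and no point reaches the dotted lines at 2-fold.

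The changes were modest. None of the 9 genes changed 2-fold in any of the 3 strains by edgeR, also at an unadjusted p under 0.05, and DESeq2 gave 0 as well. Of all genes, 6.48% were higher and 2.67% lower by that rule in nascent cells, 4.5% and 10.5% in line 6, and 1.74% and 4.94% in line 9 (9.15%, 15.1% and 6.69% in either direction). At 1.5-fold, *LYS9*, *LYS12* and *LYS20* were lower in nascent cells (11.6% of all genes were lower and 14.8% higher), *LYS1*, *LYS2*, *LYS5* and *LYS14* were higher in line 6 (12.9% higher and 19% lower), and no lysine gene passed in line 9 (5.98% and 13.1%). The median log2 fold change of the 9 genes came to -0.07 for nascent cells, 0.53 for line 6 and 0.20 for line 9, beside -0.03, -0.01 and -0.01 for all genes. Because rises and falls cancel in such a median, the sizes were also compared without sign. Their median was 0.411 for the lysine genes and 0.364 for all genes in nascent cells, 0.541 and 0.393 in line 6, and 0.393 and 0.278 in line 9. All 3 comparisons use the same WT libraries, so they are not independent of each other.

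The genes of the committed step were lower in every *ulp2Δ* strain. *LYS20* (YDL182W, chromosome IV from 133437 to 134723), which encodes 1 of the homocitrate synthases, had 117.8, 112.3 and 123.0 CPM in nascent cells, 163.5, 158.6 and 158.1 in line 6, and 131.7, 140.4 and 147.7 in line 9, compared with 191.9, 184.6 and 175.1 in WT. All 9 mutant libraries lay below all 3 WT libraries. Its log2 fold change was -0.64 in nascent cells (standard error 0.05, adjusted p = 9.44e-09 from edgeR), -0.20 in line 6 (0.05, adjusted p = 0.00138), while line 9 stood at -0.39 (0.05, adjusted p = 3.35e-06, same test). *LYS21* (YDL131W, chromosome IV from 227393 to 228715), which encodes the other homocitrate synthase, had 95.5, 92.1 and 98.2 CPM in nascent cells, 83.6, 85.2 and 86.8 in line 6, and 104.8, 106.3 and 101.3 in line 9, compared with 122.5, 123.7 and 126.0 in WT. Here line 6 was the lowest group. The log2 fold change of *LYS21* was -0.38 in nascent cells (standard error 0.04, adjusted p = 1.03e-06), -0.54 in line 6 (0.04, adjusted p = 1.55e-08), while line 9 stood at -0.25 (0.04, adjusted p = 9.31e-05, edgeR).

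The 2 homocitrate synthase genes are close copies, and this limits how well their counts can be told apart. Over 1281 aligned coding bases of the R64 genome they were 91.4% identical. Of the windows of *LYS20* that are as long as 1 sequenced read, 24.2% also occurred in *LYS21*, and the longest shared run was 278 bases. How the authors' counting treated reads that match both copies is not given in the sources used here. The sum of the 2 genes, which does not depend on how reads were divided between the copies but would change if such reads were dropped or counted for both, averaged 213 ± 8.4 CPM for nascent cells, 245.3 ± 1.71 for line 6 and 244.1 ± 6.65 for line 9, against 307.9 ± 6.63 in WT (SD, n = 3 each).

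The genes of the next 2 steps behaved differently from each other. *LYS4* (YDR234W, chromosome IV from 931129 to 933210), which encodes homoaconitase, an iron-sulfur enzyme of the mitochondrion, had 109.9, 107.0 and 108.4 CPM in nascent cells, 173.0, 162.1 and 158.3 in line 6, and 156.0, 161.0 and 155.7 in line 9, compared with 115.6, 116.7 and 108.6 in WT. The nascent and WT libraries overlapped, and both evolved lines lay above them. The log2 fold change against WT was -0.07 in nascent cells (95% interval -0.155 to 0.02, adjusted p = 0.149), 0.53 in line 6 (standard error 0.04, adjusted p = 9.15e-09), while line 9 stood at 0.47 (0.04, adjusted p = 7.67e-08, edgeR). When libraries were scaled by their totals instead of TMM, the nascent value was 0.08. *LYS12* (YIL094C, chromosome IX from 186517 to 187632), which encodes mitochondrial homoisocitrate dehydrogenase, had 104.8, 106.1 and 106.8 CPM in nascent cells, 146.6, 143.3 and 155.9 in line 6, and 140.4, 143.6 and 143.7 in line 9, compared with 166.3, 172.7 and 174.2 in WT. Its fall in nascent cells, -0.69 on the log2 scale (standard error 0.04, adjusted p = 1.9e-10), was the largest of the 9 genes in that comparison. In line 6 and line 9 the values were -0.20 (standard error 0.04, adjusted p = 0.000117) and -0.26 (0.04, adjusted p = 1.32e-05, edgeR).

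The genes of the reductase step were higher in all 3 strains. *LYS2* (YBR115C, chromosome II from 469748 to 473926), which encodes α-aminoadipate reductase, had 123.4, 118.8 and 114.9 CPM in nascent cells, 176.7, 174.3 and 154.0 in line 6, and 135.5, 143.7 and 154.3 in line 9, compared with 104.1, 98.1 and 100.4 in WT. No mutant library reached down to the WT range, while line 6 and line 9 overlapped. On the log2 scale the change was 0.24 in nascent cells (standard error 0.06, adjusted p = 0.0015), 0.74 in line 6 (0.06, adjusted p = 1.06e-08), while line 9 stood at 0.52 (0.06, adjusted p = 1.13e-06, edgeR). *LYS5* (YGL154C, chromosome VII from 215278 to 216096) encodes the phosphopantetheinyl transferase that activates Lys2. It had 46.4, 46.7 and 46.1 CPM in nascent cells, 51.9, 55.9 and 53.6 in line 6, and 47.6, 47.1 and 45.8 in line 9, compared with 38.2, 36.5 and 30.1 in WT. Its WT libraries were the most uneven of the 9 genes relative to their mean, and still lay below every mutant library. For *LYS5* the log2 fold change was 0.41 in nascent cells (standard error 0.07, adjusted p = 4.83e-05), 0.63 in line 6 (0.07, adjusted p = 4.66e-07), while line 9 stood at 0.43 (0.07, adjusted p = 4.37e-05, edgeR).

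The genes of the last 2 enzymes went opposite ways in nascent cells. *LYS9* (YNR050C, chromosome XIV from 714048 to 715388), which encodes the dehydrogenase that forms saccharopine, had 50.8, 50.4 and 46.4 CPM in nascent cells, 76.2, 81.1 and 78.8 in line 6, and 69.0, 68.9 and 75.8 in line 9, compared with 73.3, 74.6 and 77.2 in WT. Nascent cells stood apart from the other 3 groups, and both evolved lines overlapped WT. Against WT its log2 fold change was -0.61 in nascent cells (standard error 0.05, adjusted p = 4.26e-08), 0.07 in line 6 (95% interval -0.039 to 0.178, adjusted p = 0.23), while line 9 stood at -0.07 (-0.182 to 0.034, adjusted p = 0.212, edgeR). With library totals the line 6 value was -0.03. Without line 9 replicate 3 the line 9 value was -0.12 and passed (adjusted p = 0.0468). *LYS1* (YIR034C, chromosome IX from 419615 to 420736), which encodes the dehydrogenase that releases lysine from saccharopine, had 149.2, 146.5 and 152.9 CPM in nascent cells, 199.7, 193.6 and 195.2 in line 6, and 123.4, 129.2 and 129.4 in line 9, compared with 111.0, 119.1 and 103.9 in WT. Its rise in line 6 was the largest change of any of the 9 genes against WT, at 0.82 on the log2 scale (standard error 0.04, adjusted p = 1.51e-10). In nascent cells it was 0.43 (0.04, adjusted p = 4.32e-07) and in line 9 it was 0.195 (0.04, adjusted p = 0.0012, edgeR).

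*LYS14* (YDR034C, chromosome IV from 509737 to 512109), the pathway activator, had 103.7, 107.3 and 104.5 CPM in nascent cells, 120.4, 122.7 and 123.9 in line 6, and 109.9, 109.6 and 107.3 in line 9, compared with 82.4, 76.6 and 85.3 in WT. Every mutant library exceeded every WT library. *LYS14* had a log2 fold change of 0.37 in nascent cells (standard error 0.05, adjusted p = 3.09e-06), 0.59 in line 6 (0.05, adjusted p = 1.26e-08), while line 9 stood at 0.42 (0.05, adjusted p = 1.1e-06, edgeR). Of the 3 enzyme genes with a Lys14 core in the window printed above, *LYS1* rose while *LYS9* and *LYS12* fell in nascent cells, where *LYS14* was higher. The activity of Lys14 was not measured, and its part in these changes was not tested.

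**Figure D2:**
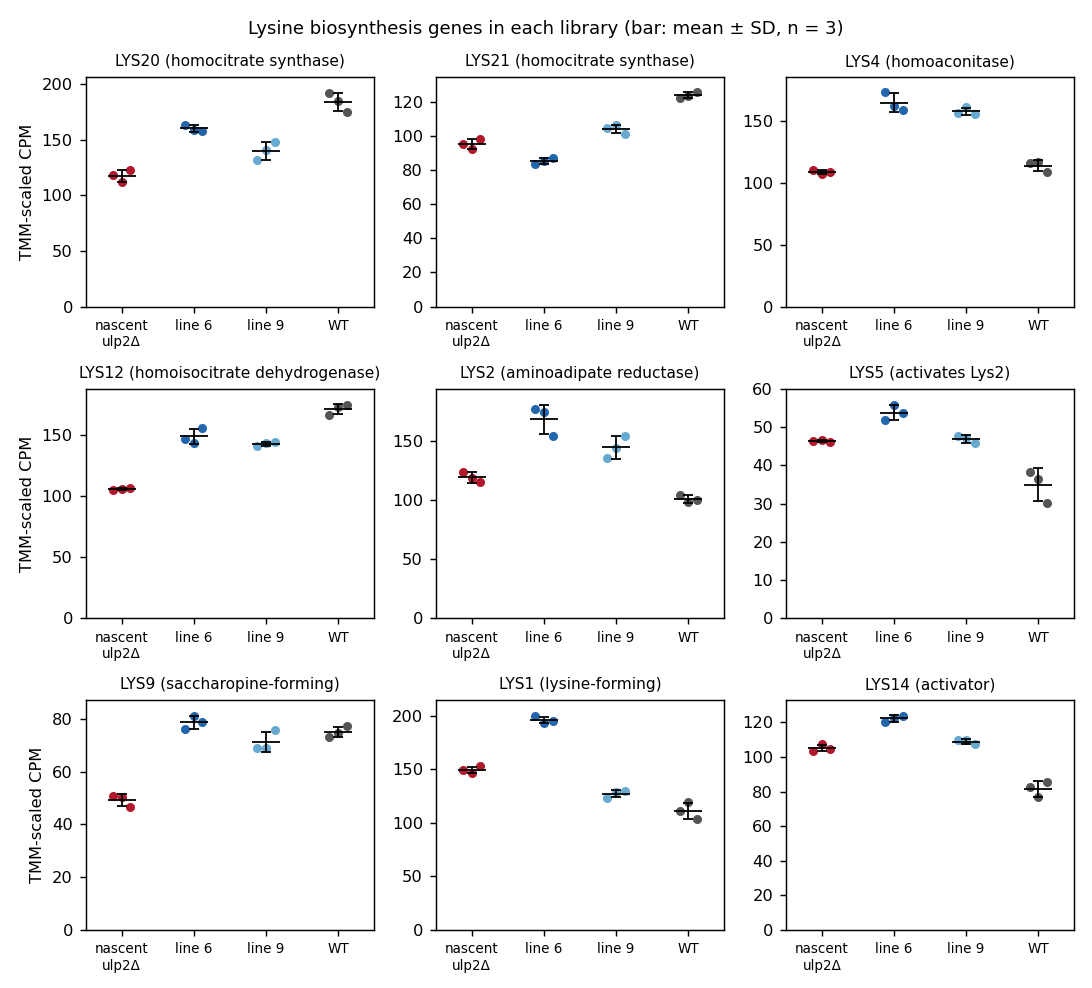
Each panel plots 1 lysine gene, with TMM-scaled CPM on the vertical axis from 0 and the groups on the horizontal axis. Points are libraries, and the bar is the mean with its SD (n = 3). *LYS9* is low in nascent *ulp2Δ* alone (46.4 to 50.8 CPM, compared with 73.3 to 77.2 in WT), and *LYS1* is highest in line 6 (193.6 to 199.7 CPM).

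The evolved lines were next compared directly with nascent cells, to ask how the genes stood after long passaging. The labels name no passaged WT, so passaging itself cannot be told apart from what else distinguishes the evolved lines, including their Uba2 mutations. In line 6, 8 of the 9 genes were higher than in nascent cells (40.1% of all genes were) and *LYS21* alone was lower (38.9% of all genes were). The largest differences were *LYS9*, at a log2 value of 0.68 (standard error 0.05, adjusted p = 7.68e-09), and *LYS4*, at 0.60 (0.04, adjusted p = 1.75e-09, edgeR). *LYS2* (0.50), *LYS12* (0.49), *LYS20* (0.44) and *LYS1* (0.39) followed, with adjusted p-values of 7.81e-07, 6.86e-09, 4.96e-07 and 6.8e-07. *LYS5* (0.21, adjusted p = 0.00718) and *LYS14* (0.22, adjusted p = 0.000416) were also higher by the same test, but under scaling by library totals their values were -0.04 and -0.03. Without the genes of chromosomes I, XII and the mitochondrial genome, *LYS5* was at 0.145 (adjusted p = 0.0567). *LYS21* was lower, at a log2 value of -0.16 (standard error 0.04, adjusted p = 0.00312).

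In line 9, 6 genes were higher than in nascent cells (38.2% of all genes were) and *LYS1* was lower (37.9% of all genes were). *LYS4* had a log2 value of 0.54 (standard error 0.04, adjusted p = 8.08e-09), *LYS9* of 0.53 (0.05, adjusted p = 1.54e-07) and *LYS12* of 0.43 (0.04, adjusted p = 3.81e-08, edgeR). *LYS2* (0.28, adjusted p = 0.00034), *LYS20* (0.25, adjusted p = 0.000223) and *LYS21* (0.13, adjusted p = 0.013) had smaller differences. With library totals *LYS2* and *LYS20* were at 0.10 and 0.07 and no longer passed, and *LYS21* was at -0.05. *LYS21* also missed the threshold at 0.07 with upper-quartile scaling and at 0.06 without chromosomes I, XII and the mitochondrial genome, as well as without nascent replicate 1 (0.11), nascent replicate 2 (0.08) or line 9 replicate 1 (0.11). *LYS1* was at -0.23 (standard error 0.04, adjusted p = 0.000203). For *LYS5* the difference was 0.01 (95% interval -0.125 to 0.153) and for *LYS14* it was 0.05 (-0.046 to 0.147), and neither passed. The sign of both turned with library totals, upper-quartile scaling, and the fit without those chromosomes. With library totals both passed as lower, *LYS5* at -0.165 (adjusted p = 0.0283) and *LYS14* at -0.129 (adjusted p = 0.0319, edgeR). No gene differed 2-fold in either comparison, also at an unadjusted p under 0.05 or with DESeq2. Of all genes, 5.23% were higher and 12.6% lower at 2-fold in line 6 (17.8% together), and 3.75% and 10.6% in line 9 (14.4% together). At 1.5-fold, *LYS4* and *LYS9* were higher in line 6 (16.8% of all genes were higher and 22.4% lower) and no lysine gene passed in line 9 (12.3% and 19.7%). In line 6 all 9 genes passed and none overlapped nascent cells, where 79% of all genes passed and 81.3% did not overlap. In line 9, 7 passed and 8 did not overlap, beside 76.2% and 79.3% of all genes.

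Line 6 and line 9 differed most in *LYS1*. Its log2 value in line 6 against line 9 was 0.62 (standard error 0.04, adjusted p = 8.49e-09 from edgeR), and every line 6 library lay above every line 9 library. Between the lines 6 genes were higher in line 6 (28.2% of all genes were), namely *LYS1*, *LYS2*, *LYS5*, *LYS9*, *LYS14* and *LYS20*, and *LYS21* was lower (29.4% of all genes were). *LYS2* was at 0.22 (adjusted p = 0.00346), although its libraries overlapped. *LYS20* (0.19, adjusted p = 0.00279), *LYS14* (0.17, adjusted p = 0.00517), *LYS5* (0.20, adjusted p = 0.0158) and *LYS9* (0.14, adjusted p = 0.0249) had small differences. *LYS21* was at -0.29 (standard error 0.04, adjusted p = 3.43e-05). *LYS4* (0.06, 95% interval -0.024 to 0.147) and *LYS12* (0.06, -0.019 to 0.137) did not pass. With library totals, 3 genes rather than 6 were higher, since *LYS5*, *LYS9* and *LYS14* lost the call, and *LYS4* and *LYS12* both stood at -0.01. *LYS5* also lost it without line 6 replicate 2 or line 9 replicate 3 (0.17 and 0.18), and *LYS9* without line 6 replicate 2, line 9 replicate 1 or line 9 replicate 2 (0.12, 0.11 and 0.12). None of the 9 genes differed 2-fold between the lines by edgeR, at an unadjusted p or with DESeq2, while 2.07% of all genes were higher and 2.35% lower (4.43% together). *LYS1* alone passed 1.5-fold, where 6.15% of all genes were higher and 7.49% lower. In all, 7 of the 9 genes passed and 6 did not overlap between the lines, beside 57.6% and 62.3% of all genes.

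**Figure D3:**
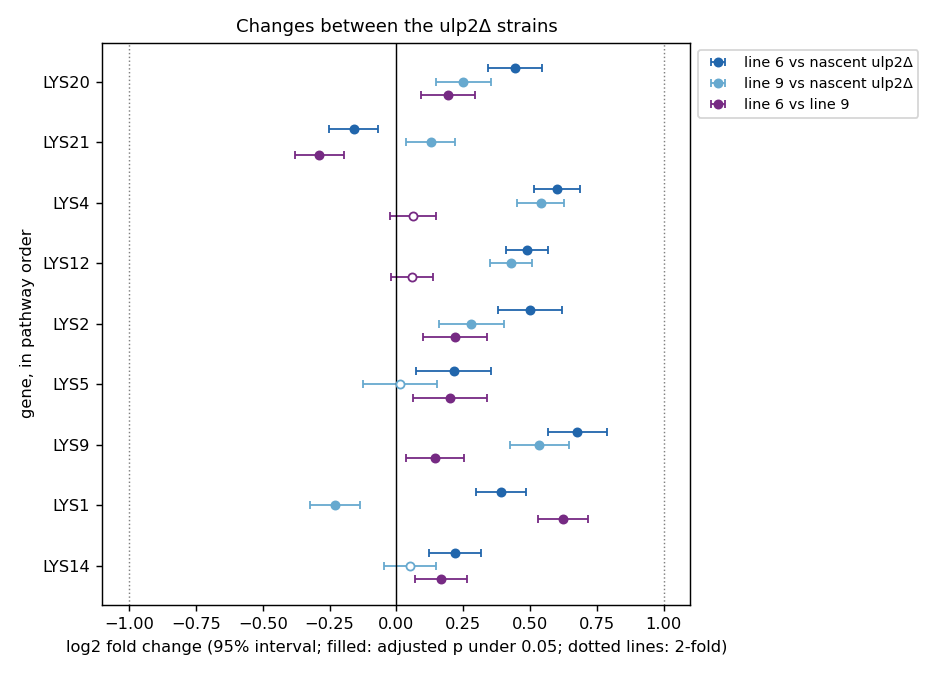
The log2 fold change of each lysine gene (horizontal axis, with its 95% interval) is plotted for line 6 and line 9 against nascent *ulp2Δ* and for line 6 against line 9. Filled points passed the test. *LYS9*, *LYS4* and *LYS12* lie right of 0 in both evolved lines against nascent cells, and *LYS1* has opposite signs in the 2 lines (0.39 and -0.23).

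Read gene by gene, the groups fell into different orders. *LYS1* was highest in line 6, followed by nascent cells, line 9 and WT, and each step of that order passed the test. *LYS2* ran from line 6 through line 9 and nascent cells to WT. *LYS5* and *LYS14* were highest in line 6 and lowest in WT, and line 9 and nascent cells did not differ beyond the test's threshold. *LYS4* was higher in the evolved lines, which did not differ beyond the test's threshold, than in nascent cells and WT, which did not either. *LYS12* and *LYS20* were highest in WT and lowest in nascent cells. *LYS21* was highest in WT and lowest in line 6. *LYS9* was lowest in nascent cells.

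Per length, the order of the genes within a group also differed. In nascent cells *LYS1* led with 133.3 ± 2.85 CPM per kb of coding length, followed by *LYS12* at 94.9 ± 0.87 and *LYS20* at 91.5 ± 4.18, which overlapped each other. In line 6 *LYS1* had 174.8 ± 2.81 CPM per kb and *LYS12* had 133.1 ± 5.83. In line 9 *LYS12* led with 127.8 ± 1.67 CPM per kb, ahead of *LYS1* at 113.5 ± 3.03. In WT *LYS12* led with 153.3 ± 3.73 CPM per kb, overlapping *LYS20* at 142.9 ± 6.54, and *LYS1* followed at 99.2 ± 6.75 (SD, n = 3 each). *LYS2* was the lowest gene per kb in all 4 groups, at 28.5 ± 1.02 for nascent cells, 40.3 ± 2.98 for line 6 and 34.6 ± 2.25 for line 9, against 24.1 ± 0.72 in WT.

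A ratio of 2 genes within a library does not depend on how libraries are scaled. The pairs below were chosen after the levels had been seen. The ratio of *LYS1* to *LYS9*, both as CPM per kb, was 3.51, 3.48 and 3.94 in nascent cells, 3.13, 2.85 and 2.96 in line 6, and 2.14, 2.24 and 2.04 in line 9, compared with 1.81, 1.91 and 1.61 in WT. The 4 groups did not overlap. The mean log2 ratio exceeded that of WT by 1.04 for nascent cells, 0.75 for line 6 and 0.27 for line 9 (exact permutation test, two-sided, p = 0.1 each, the smallest p that 3 libraries against 3 allow). The ratio of *LYS2* to *LYS9* was 0.757 to 0.794 in nascent cells, 0.627 to 0.744 in line 6 and 0.630 to 0.669 in line 9, compared with 0.417 to 0.456 in WT. Its log2 value exceeded that of WT by 0.85, 0.67 and 0.59 in that order (p = 0.1 each, same exact test). The ratio of *LYS20* to *LYS21* was 1.25 to 1.29 in nascent cells, 1.87 to 2.01 in line 6 and 1.29 to 1.499 in line 9, compared with 1.43 to 1.61 in WT. Line 6 lay above WT by 0.34 and nascent cells lay below it, at -0.26, on the log2 scale (p = 0.1 each), while line 9, at -0.14, overlapped WT (p = 0.2, same exact test). This last ratio is uncertain where reads match both copies. Over these ratios, 18 comparisons were made, and with 3 libraries a group none could pass an adjusted threshold of 0.05.

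**Figure D4:**
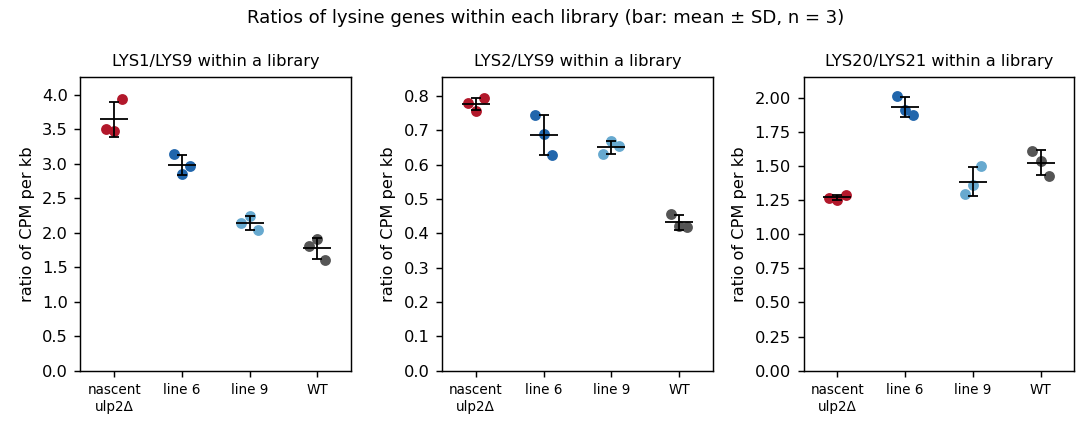
The ratio of 2 lysine genes within each library, both as CPM per kb, is plotted from 0 for *LYS1* to *LYS9*, *LYS2* to *LYS9* and *LYS20* to *LYS21*. Points are libraries, and the bar is the mean with its SD (n = 3). The first ratio falls into 4 separate groups, highest in nascent *ulp2Δ* (3.48 to 3.94), and the third is highest in line 6 (1.87 to 2.01).

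The 7 enzyme genes of the main route (*LYS1*, *LYS2*, *LYS4*, *LYS9*, *LYS12*, *LYS20* and *LYS21*) were compared with their own mean profile over the 12 libraries. The measure was the root mean square difference between a gene's centred log2 CPM and the mean of the 7. It was 0.14 for *LYS9*, the closest of them, which ranked 746 among the 6372 genes. *LYS4*, *LYS12* and *LYS20* ranked 1247, 1250 and 1303, and *LYS2* and *LYS21* ranked 2183 and 2720. *LYS1*, the farthest at 0.30, ranked 3005. The 5 closest genes outside the pathway were *RBK1* (0.027), *ALG6* (0.031), *SEC26* (0.032), *SEG2* (0.039) and *IDS2* (0.041). *RBK1* encodes ribokinase, *ALG6* a glucosyltransferase of protein glycosylation and *SEC26* a subunit of the COPI coat. This ranking is a description over 12 libraries of 4 groups, and it carries no test. The mean profile joins genes that moved in opposite directions against WT, and the measure was not scaled for the size of change. Genes with smaller ranges can therefore rank closer. *RBK1* spanned 0.488 on the log2 scale over the libraries, while *LYS9* spanned 0.803 and *LYS1* 0.942.

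Genes that serve the pathway were examined next, from a list of 9 partners and transporters and a list of 6 regulators. Of the partners, 1 was higher than WT in nascent cells and 5 were lower. Line 6 had 4 higher and 5 lower, and line 9 had 3 higher and 4 lower. Of all tested genes 33.6% were higher and 39.7% lower in nascent cells, with 36.8% and 37.2% for line 6 and 32.5% and 33.9% for line 9. Scaling by library totals turned the nascent counts to 4 higher and 3 lower. *ODC1* and *ODC2* encode carriers that export α-ketoadipate and related acids from mitochondria. *ODC1* fell by 0.91 on the log2 scale in nascent cells (adjusted p = 3.35e-11) and by 0.21 in line 6 (adjusted p = 0.000312), and was at 0.05 in line 9 (adjusted p = 0.291). *ODC2* did not pass in nascent cells (0.07) but did at 0.22 with library totals, 0.09 with RLE scaling, 0.11 with upper-quartile scaling and 0.13 without chromosomes I, XII and the mitochondrial genome. It fell by 0.77 in line 6 and 0.80 in line 9 (adjusted p = 4.9e-11 and 1.35e-10). The aminotransferase gene *ARO8* was slightly lower in all 3 strains (-0.15, -0.28 and -0.14 in the order nascent, line 6, line 9), although the nascent value was -0.01 and missed the threshold with library totals, and *YER152C*, another gene for α-aminoadipate transamination, was higher (0.45, 0.31 and 0.25).

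Of the genes for the transport and use of lysine, *LYP1* and *KRS1* differed between the evolved lines. *LYP1*, the lysine permease gene, had 252.9, 252.7 and 265.0 CPM in nascent cells, 463.9, 464.0 and 434.7 in line 6, and 282.8, 285.1 and 309.1 in line 9, compared with 297.8, 292.3 and 285.9 in WT. Only line 6 exceeded WT, by a log2 value of 0.64 (adjusted p = 1.31e-09), and line 6 also exceeded line 9 by 0.64 (adjusted p = 3.3e-09, edgeR). In nascent cells *LYP1* was lower than WT, at -0.185 (adjusted p = 0.000882, edgeR). With library totals that value was -0.037 and missed the threshold. *KRS1*, which encodes the cytosolic lysyl-tRNA synthetase, had 232.3, 225.5 and 226.4 CPM in nascent cells, 84.5, 97.1 and 86.8 in line 6, and 134.8, 122.5 and 127.4 in line 9, compared with 225.0, 229.4 and 219.4 in WT. It fell by 1.33 on the log2 scale in line 6 (adjusted p = 1.65e-12) and by 0.81 in line 9 (adjusted p = 1.29e-09), and was at 0.02 in nascent cells (adjusted p = 0.688, edgeR), or at 0.17 and past the threshold with library totals. *MSK1*, for the mitochondrial synthetase, was higher in both lines (0.55 and 0.49) and did not pass in nascent cells (0.02, but 0.17 and past the threshold with library totals). *YPQ1*, for a vacuolar transporter of basic amino acids, was lower in all 3 strains (-0.29, -0.64 and -0.52). In line 6 against line 9, *MSK1* (0.05, adjusted p = 0.317) and *YPQ1* (-0.12, adjusted p = 0.0908, edgeR) did not pass. With library totals *YPQ1* was at -0.19 there and passed.

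Among the regulators, 2 of 6 were higher and 1 lower than WT in nascent cells, and 5 of 6 were higher in each evolved line, all but *RTG3* in line 6 and all but *MKS1* in line 9. The shares of all genes higher were 33.6% for nascent cells, 36.8% for line 6 and 32.5% for line 9, and 39.7% were lower in nascent cells. *GCN4*, whose product is controlled mainly at translation, had 1260.5, 1270.8 and 1280 CPM in nascent cells, 2351, 2322 and 2254 in line 6, and 2529, 2651 and 2596 in line 9, compared with 1546, 1582 and 1445 in WT. Its RNA fell by 0.26 on the log2 scale in nascent cells (adjusted p = 1.74e-05) and was higher by 0.60 in line 6 (adjusted p = 1.21e-09), while line 9 stood at 0.77 (adjusted p = 2.53e-10, edgeR). *GCN2*, the kinase gene upstream of *GCN4*, was higher in both lines (0.52 and 0.53) and at -0.02 in nascent cells. *MKS1*, a regulator that affects both lysine synthesis and retrograde signalling, was higher in nascent cells (0.44) and line 6 (0.45) and did not pass in line 9 (0.10), where it passed with DESeq2 (0.13) and with RLE scaling (0.125), so that all 6 regulators were higher by those fits. The retrograde factor genes *RTG1* (0.33, 0.21 and 0.30), *RTG2* (-0.02, 0.14 and 0.10) and *RTG3* (0.08, 0.10 and 0.26) changed by 0.33 or less. *RTG1* passed the test in all 3 strains, *RTG2* in both lines and *RTG3* in line 9. With library totals *RTG1* no longer passed in line 6 (0.11), nor *RTG2* in line 6 (0.03) or line 9 (0.07), and *RTG2* and *RTG3* passed in nascent cells (0.13 and 0.23).

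**Figure D5:**
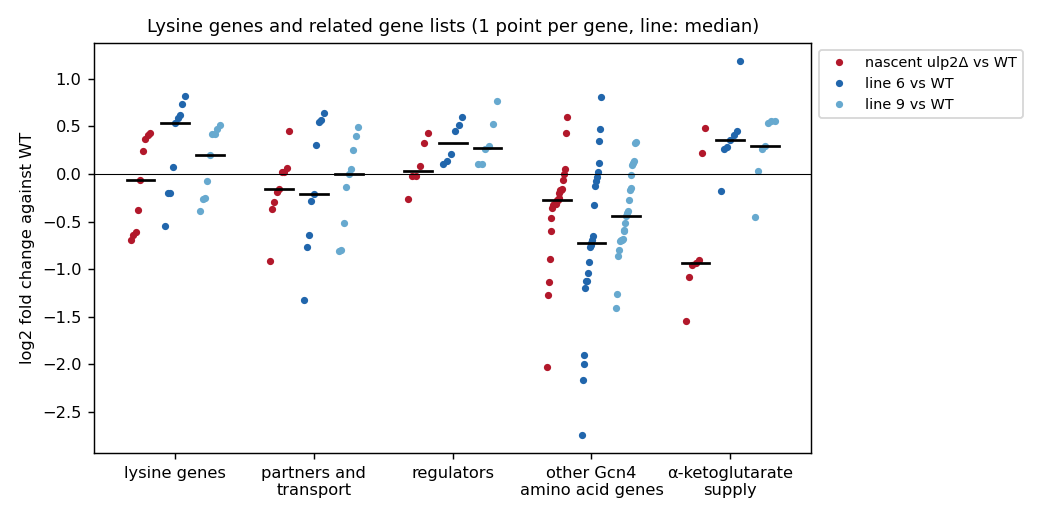
The log2 fold change against WT (vertical axis) of each gene in the lysine list and in 4 related lists is plotted for nascent *ulp2Δ*, line 6 and line 9, with 1 point per gene and a line at the list's median. The lysine genes stand on both sides of 0 in all 3 strains, with medians of -0.07, 0.53 and 0.20.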

How the data were processed

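RNA was sequenced from 3 libraries each of nascent *ulp2Δ*, line 6, line 9 and WT. According to the labels and the study's methods, the authors trimmed paired-end reads with Trim Galore 0.5.0, mapped them with HISAT2 2.1.0 to sacCer3, quantified genes with StringTie 1.3.3b on SGD models and tested with DESeq2 1.22.1. The deposited values are raw counts for each gene. How coverage became counts, and the use of strand, are not given in the sources used here. The 6 loci with no gene name (0.0826% to 0.173% of a library) were left out. Of 7108 features, 6011 matched RefSeq's R64 annotation (the sacCer3 assembly), which gave symbols, positions and lengths.

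Counts were fitted in R 4.3.3 with edgeR 4.0.16 (TMM, filterByExpr, quasi-likelihood test), all 12 libraries in 1 fit with a mean per group; 6372 genes were tested. Standard errors were derived from the F statistic. Alternatives were DESeq2 1.42.0, other scalings, filters, thresholds and gene sets, only the groups compared, the replicate number as a block, and each library left out. The steps were tested on simulated counts. The named genes are the 9 members, *ULP2*, all partners and regulators but 1 partner that is not reported here, up to 6 genes called at 2-fold in each of the other 2 lists, and the 5 genes of most similar profile. Members and lists were chosen with earlier results of these data known, and the gene ratios, the counts by adjusted p alone and the rescaling of related lists were added after the data were seen. Every pair of replicates differed beyond sampling noise. The labels do not say whether they were separate cultures, so p-values measure only the spread between these libraries.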

Additional observations from a re-analysis of the deposited data

Results flagged for a closer look

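The effects of line 6 and line 9 against WT differed for 7 of the 9 lysine genes in the direct test between the lines (edgeR's quasi-likelihood test, adjusted p under 0.05, all differences under 2-fold). The difference in log2 fold change, line 6 minus line 9, was 0.62 for *LYS1* (adjusted p = 8.49e-09), 0.22 for *LYS2* (adjusted p = 0.00346), 0.20 for *LYS5* (adjusted p = 0.0158), 0.14 for *LYS9* (adjusted p = 0.0249), 0.17 for *LYS14* (adjusted p = 0.00517), 0.19 for *LYS20* (adjusted p = 0.00279) and -0.29 for *LYS21* (adjusted p = 3.43e-05). In this comparison 57.6% of all tested genes passed. Each line is 1 evolved line, so variation between lines cannot be told apart from what else distinguishes these 2.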

How the results depend on the processing

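With no fold threshold, the lysine genes higher and lower numbered 4 and 4 for nascent cells, 5 and 3 for line 6 and 5 and 3 for line 9, each against WT. They numbered 8 and 1 for line 6 and 6 and 1 for line 9, each against nascent cells, and 6 and 1 for line 6 against line 9. At 1.5-fold, 3 were lower in nascent cells and 4 higher in line 6 against WT, 2 were higher in line 6 against nascent cells and 1 in line 6 against line 9, and the other counts were 0. At 2-fold every count was 0 under every alternative run (0 to 0 when a library was left out). The counts with no fold threshold, read under the other settings after seeing the data, changed by more than 1.5-fold only with library totals, to 3 higher and 3 lower in line 9 against nascent cells and 3 higher in line 6 against line 9. Smaller changes were to 6 higher in line 6 against nascent cells with library totals and 7 without chromosomes I, XII and the mitochondrial genome, to 5 higher in line 9 against nascent cells with upper-quartile scaling and without those chromosomes, and, when a library was left out, to 5 higher in line 9 against nascent cells, 4 or 5 higher in line 6 against line 9 and 4 lower in line 9 against WT.

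Of 1134 values of single genes under the alternatives, 1100 kept direction and side of the threshold, 17 reversed, 16 lost the call in the same direction and 1 gained it in the same direction (*LYS9* in line 9 against WT, -0.12 without line 9 replicate 3). Of the reversed values, 3 also lost a call (*LYS5* and *LYS14* in line 6 and *LYS21* in line 9, against nascent cells) and 2 gained one (*LYS5* and *LYS14* in line 9 against nascent cells), all with library totals. With library totals, which shifted the median gene by 0.148 in nascent cells against WT, -0.103 in line 6 against WT, and -0.25 and -0.179 in line 6 and line 9 against nascent cells, the reversed values were 0.081 for *LYS4* (nascent against WT), -0.033 for *LYS9* (line 6 against WT), -0.036 for *LYS5* and -0.032 for *LYS14* (line 6 against nascent), -0.165 for *LYS5*, -0.129 for *LYS14* and -0.051 for *LYS21* (line 9 against nascent), and -0.01 for *LYS4* and -0.012 for *LYS12* (line 6 against line 9). In line 9 against nascent cells, *LYS5* was at -0.042 and *LYS14* at -0.005 with upper-quartile scaling, and at -0.057 and -0.021 without chromosomes I, XII and the mitochondrial genome; leaving out single libraries gave -0.013 to 0.032 for *LYS5*. The cause of these changes beyond the shift of the median gene was not tested.

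Same-numbered replicates deviated together in 1 of 18 pairs (correlation over 0.1), beside 5 of 36 differently numbered pairs, so the numbers showed no clear pairing over all groups. Between WT and nascent cells, however, same-numbered correlations were 0.093, 0.081 and 0.081, and the others -0.055 to -0.029. Deviations were taken from the group means, so positive same-numbered values force the others below 0 and the contrast adds nothing. A weak pairing between WT and nascent cells cannot be told from these values. With the replicate number as a block, the counts at 2-fold stayed at 0 and those with no fold threshold at the values above.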

Other observations

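Other amino acid synthesis genes under Gcn4 were mostly lower than WT in all 3 strains. Of 23 listed genes, 2 were higher and 18 lower in nascent cells (median log2 fold change -0.28), 3 higher and 16 lower in line 6 (median -0.73), and 3 higher and 17 lower in line 9 (median -0.44). Scaling by library totals, tried after seeing the data, gave 4 higher and 14 lower in nascent cells, 3 and 19 in line 6 and 2 and 17 in line 9. Of all tested genes, 33.6% were higher and 39.7% lower in nascent cells, 36.8% and 37.2% in line 6, and 32.5% and 33.9% in line 9, and the medians of all genes were -0.03, -0.01 and -0.01. In line 6, *ARG1*, for argininosuccinate synthetase, fell by 2.74 on the log2 scale, *ILV2*, for acetolactate synthase, by 2.16, *ARO4*, for an enzyme that opens aromatic amino acid synthesis, by 2.00 and *HOM3*, for aspartate kinase, by 1.90. *HIS4*, a histidine synthesis gene, was higher there by 0.81, and *HIS1*, the first gene of that pathway, fell by 1.04. In the same line 5 of the 9 lysine genes were higher and 3 lower, between 0.82 for *LYS1* and -0.54 for *LYS21* (edgeR).

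Genes that supply α-ketoglutarate, a substrate of the lysine pathway, were also listed. Of 7 listed genes, 2 were higher and 5 lower than WT in nascent cells (median log2 fold change -0.94), 6 higher and 1 lower in line 6 (median 0.36), and 5 higher and 1 lower in line 9 (median 0.30), beside the shares and medians of all genes given above. *IDH1* and *IDH2*, for the subunits of mitochondrial isocitrate dehydrogenase, fell by 1.54 and 1.08 in nascent cells, and both were higher than nascent cells in line 6 (1.37 and 1.34) and in line 9 (1.57 and 1.35). Against WT, *IDH1* was the lower gene of line 6 (-0.18, adjusted p = 0.00067) and did not pass in line 9 (0.03, adjusted p = 0.521, edgeR). *IDH2* was higher than WT in both lines (0.26 and 0.27). *CIT1*, *ACO1* and *PYC1* fell by 0.94, 0.95 and 0.91 in nascent cells, while *CIT2*, for the peroxisomal citrate synthase, was higher in all 3 strains (0.49, 1.18 and 0.55 in the order nascent, line 6, line 9). *ACO1* lies on chromosome XII, whose median gene was 0.69 higher than WT in nascent cells.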
